A study of Mus musculus with 12 samples.

Results

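Nicotine vapor was compared with room air in the thoracic aorta of wild-type (WT) mice, using 6 of the 12 RNA libraries of the study and the 14621 of 27933 listed genes with enough counts to be tested. The 6 libraries were taken by genotype and exposure from their labels. Libraries 8, 9 and 10 came from WT mice in room air and libraries 6, 11 and 12 from WT mice that inhaled nicotine. All were C57BL/6J animals, exposed for 12 weeks from 5 months of age and sampled at 8 months. The other 6 libraries came from mice labelled as alpha7 nicotinic receptor knockouts (KO), with libraries 1, 2 and 7 in air and 3, 4 and 5 in nicotine, of the same age and exposure. They entered the shared estimate of the spread and gave the KO values set beside some WT values. The labels name no allele for the knockout, and it is not stated whether any libraries share a mouse. Every p-value therefore measures only how far these libraries vary, and some of that variation may be technical. A WT library held 10240031 to 12628323 counts over 17995 to 18545 genes.

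Nicotine opens nicotinic acetylcholine receptors, ligand-gated cation channels that are best known from neurons and muscle and are also made by endothelial cells, macrophages and other cells of the vessel wall. The alpha7 subunit, encoded by Chrna7, forms a calcium-permeable channel from copies of itself. The aorta is built of an endothelial lining, a media of smooth muscle cells between elastic sheets, and an adventitia of fibroblasts, macrophages, mast cells and lymphatic vessels, with fat around it. A bulk library mixes all of these, so fewer cells of a type and less RNA per cell cannot be told apart in any value below. The labels say that the fat had been removed. Contractile smooth muscle genes were nevertheless accompanied by fat transcripts in every WT library, as given further on.

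In WT aorta 3 genes rose with nicotine vapor and none fell, by edgeR's quasi-likelihood test at a Benjamini-Hochberg adjusted p under 0.05. They were Errfi1, Has1 and Rcan1. Errfi1 encodes a cytosolic feedback inhibitor of the epidermal growth factor (EGF) receptor family. Has1 encodes a synthase of hyaluronan, the large sugar polymer of the pericellular matrix. Rcan1 encodes an inhibitor of calcineurin, the calcium-dependent phosphatase that activates NFAT transcription factors. The higher calls were 0.0205% of the genes tested and the lower calls 0%.

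The promoter windows of these genes share a stretch of letters, and are shown for that reason. RefSeq's table of promoters, on build GRCm38.p6, gives the 250 bases before and the 50 bases after each annotated start. The files themselves were made on mm9, so the coordinates apply to the RefSeq build only. The letters TGACGTCA, known as the full cyclic AMP response element (CRE), read the same on both strands and are printed in capitals.
Errfi1, chr4:150854820-150855119, plus strand: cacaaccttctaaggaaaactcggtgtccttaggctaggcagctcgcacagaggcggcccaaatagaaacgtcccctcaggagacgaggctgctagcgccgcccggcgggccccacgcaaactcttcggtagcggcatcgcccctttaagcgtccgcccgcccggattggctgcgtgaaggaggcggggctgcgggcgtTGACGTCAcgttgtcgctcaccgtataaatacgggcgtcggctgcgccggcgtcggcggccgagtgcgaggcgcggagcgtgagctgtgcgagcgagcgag
Has1, chr17:17855139-17855438, minus strand: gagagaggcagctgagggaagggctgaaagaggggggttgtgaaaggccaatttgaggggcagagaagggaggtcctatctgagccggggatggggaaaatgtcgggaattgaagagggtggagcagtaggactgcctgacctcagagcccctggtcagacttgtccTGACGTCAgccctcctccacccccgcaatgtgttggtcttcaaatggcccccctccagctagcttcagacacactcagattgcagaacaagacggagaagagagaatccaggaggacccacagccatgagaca
Rcan1, chr16:92400029-92400328, minus strand: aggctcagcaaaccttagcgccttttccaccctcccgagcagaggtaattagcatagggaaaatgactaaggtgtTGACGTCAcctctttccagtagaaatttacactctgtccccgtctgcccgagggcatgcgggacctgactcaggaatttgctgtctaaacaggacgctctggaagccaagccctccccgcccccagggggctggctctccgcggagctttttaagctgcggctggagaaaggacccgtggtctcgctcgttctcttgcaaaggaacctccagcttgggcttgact

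The CRE letters began 51 bases before the start in Errfi1, 83 bases before it in Has1 and 175 bases before it in Rcan1. Errfi1 also held the letters TATAAA 28 bases before its start. Rcan1 held the letters TGANTCA, known from AP-1 sites, 110 bases before its start. Searched on both strands, these were found in 7.76% and 5.6% of the 13883 promoter windows of tested genes. Errfi1 and Rcan1 each have another annotated start whose window lacks the CRE letters. The Rcan1 window shown belongs to the start that lies further along the gene, and a count per gene does not tell which start was used.

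The motif was chosen after these sequences had been read, so its presence in all 3 genes is a description. It was found in 3.4% of the 10866 tested genes with a window. By window, it was found in 2.85% of the 13883 and in 3 of the 5 windows of the called genes. Over the whole table it was found in 2.03% of genes and in 1.79% of the 32851 windows. Among the 12 higher genes of lowest p described next, 9 had a window in the table, and the 3 called genes were the only ones of the 9 with the CRE letters. None of the 7 matched genes among the 12 lower ones had them. Tested genes with the CRE letters had values close to those of all tested genes. Without the called genes, 366 tested genes held the letters, 51.4% of them had a log2 fold change above 0, and 5.74% had a higher value at an unadjusted p under 0.05. The same shares over all 10866 tested genes with a window were 49.1% and 5.28%. The CArG box, which serum response factor binds at many smooth muscle promoters, was found in 1.38% of the 13883 windows. Of the 181 tested genes that held it, 7.73% had a lower value at an unadjusted p under 0.05, against 4.25% of the 10866. Of the 1023 tested genes with TATAAA, 8.21% had a higher and 3.71% a lower value at that threshold. Of the 729 with TGANTCA, these shares were 6.72% and 4.80%.

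Levels are given as CPM, counts relative to library size with edgeR's TMM factors, with libraries in the order air 8, 9 and 10, then nicotine 6, 11 and 12. Errfi1 stood at 101, 68.0 and 113 CPM in air and at 507, 391 and 275 CPM in nicotine. Every nicotine library lay well above every air library. The log2 fold change was 2.05 ± 0.26 (SE; edgeR adjusted p = 0.0190), and the nicotine values were spread more widely than the air values.

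Has1 stood at 1.74, 2.22 and 2.02 CPM in air and at 8.36, 7.38 and 9.96 CPM in nicotine. These levels rest on 20, 27 and 25 raw counts in air and on 85, 88 and 122 raw counts in nicotine. All nicotine libraries lay well above all air libraries, with little spread in either group. The log2 fold change was 2.10 ± 0.27 (SE; edgeR adjusted p = 0.0190).

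Rcan1 stood at 30.5, 26.2 and 29.4 CPM in air and at 55.3, 78.8 and 75.1 CPM in nicotine, again with no overlap. The log2 fold change was 1.28 ± 0.17 (SE; edgeR adjusted p = 0.0190). All 3 calls ended, at log2 fold changes of 1.20 to 2.22, when the adipocyte score was a covariate (0 genes called), when the 6 WT libraries were fitted alone (0), and when air 9 or nicotine 11 was left out (0 each). Errfi1 and Has1 were also lost without WT nicotine 6, where 1 gene was called, and Has1 and Rcan1 without WT air 10, where 4 were called.

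**Figure D1:**
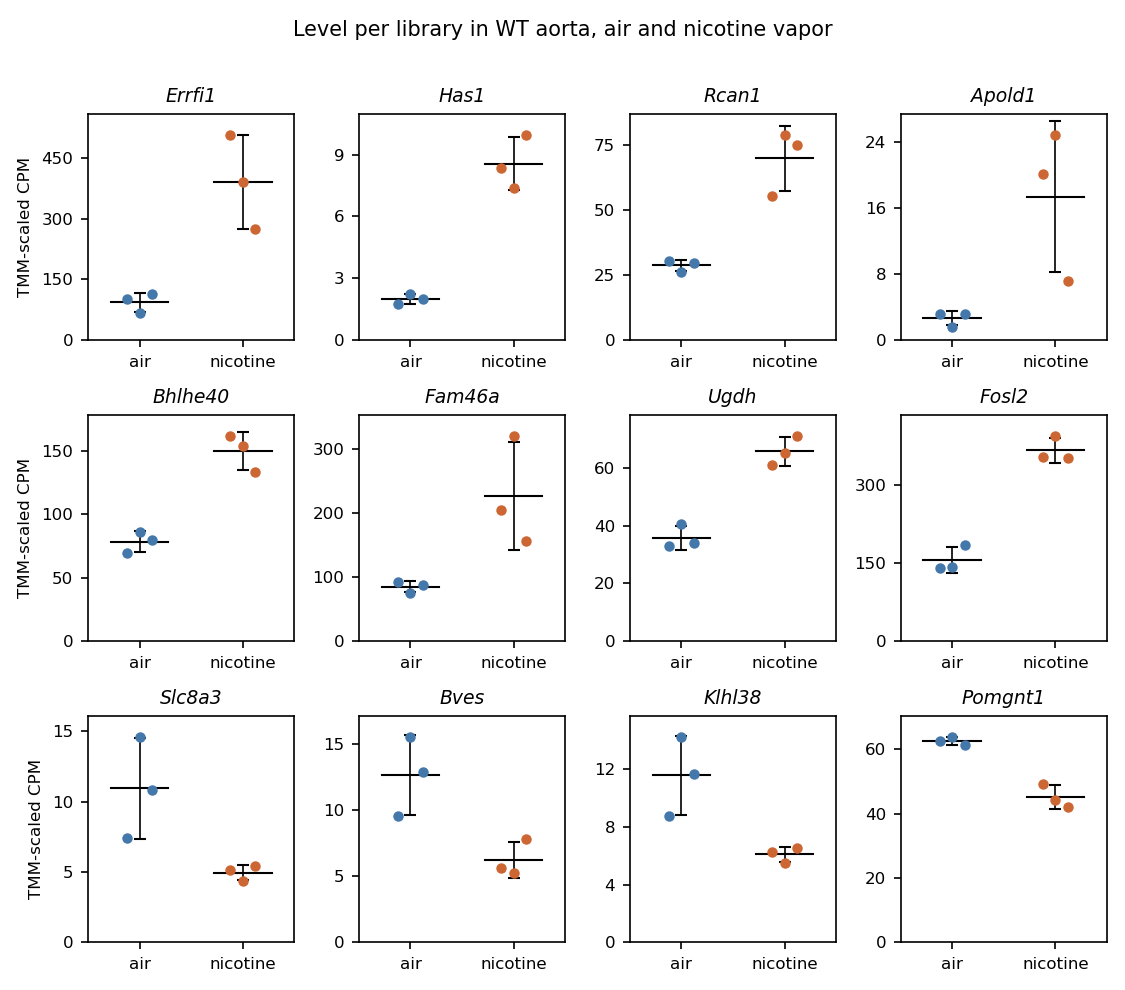
TMM-scaled CPM (vertical axis, from 0) of 12 genes in the 3 WT air libraries (blue) and the 3 WT nicotine libraries (orange), with the group mean as a horizontal line and the SD as an error bar. The upper 8 genes are higher and the lower 4 are lower in every nicotine library than in every air library, and Errfi1, Has1 and Rcan1 are the genes that passed the test. The other genes shown were picked among those without overlap.

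Over the whole table, more genes differed weakly than the 3 calls show. At an unadjusted p under 0.05 there were 794 higher genes (5.43%) and 645 lower genes (4.41%), 1439 together, where 731 would be expected if no gene differed. All 3 nicotine libraries lay above all 3 air libraries in 1042 genes (7.13%) and below them in 885 (6.05%). With 3 libraries a group, many genes would separate in this way even if no gene differed. The counts at an unadjusted p under 0.05 depend on single libraries. They were 1459 higher and 974 lower without air 8, 514 and 302 without air 9, and 597 and 347 without air 10. The split depends on the scaling. With upper quartile factors it was 864 higher and 1186 lower without overlap, and 677 higher and 860 lower at the unadjusted threshold. Of genes that differed by more than 1 on the log2 scale, 487 were higher and 200 lower. The median log2 fold change over all tested genes was -0.00466, and 49.4% lay above 0. These background values stand beside every list below.

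The authors' deposited table of the same comparison holds 123 genes at an adjusted p under 0.05, with 112 higher and 11 lower in nicotine. It lists Errfi1 at an adjusted p of 3.98e-11, Rcan1 at 6.43e-07 and Has1 at 1.76e-06 in the authors' deposited table. Of its 123 genes, 121 were tested by edgeR here, 117 of these had an unadjusted p under 0.05 and 119 had no overlap between groups. DESeq2 1.42.0 on the 6 WT libraries gave the log2 fold changes of the authors' deposited table within 0.001 for 100% of 17193 matched genes. On those 6 libraries DESeq2 on genes with over 20 counts in all called 123 genes and edgeR with filterByExpr 0, against 3 for edgeR on all 12 libraries.

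**Figure D2:**
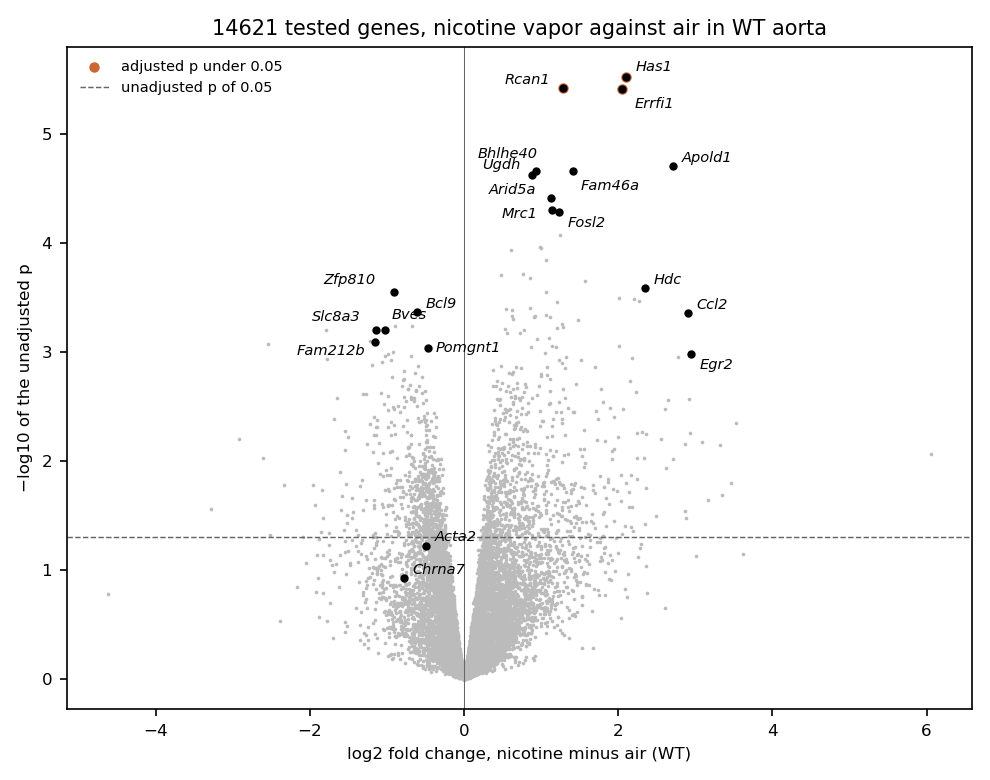
The log2 fold change of nicotine minus air in WT aorta (horizontal axis) against −log10 of the unadjusted edgeR p (vertical axis) for the 14621 tested genes, each a grey point, with named genes in black. The 3 genes past the adjusted threshold are ringed in orange, and 794 higher and 645 lower genes lie above the dashed line at an unadjusted p of 0.05.

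The genes that came next on the higher side missed the threshold narrowly. Apold1, an early response gene of endothelial cells, stood at 3.13, 1.65 and 3.15 CPM in air and at 20.1, 24.8 and 7.19 CPM in nicotine. WT nicotine 12 lay closest to the air libraries (log2 fold change 2.71 ± 0.42, edgeR adjusted p = 0.0501). Bhlhe40, a transcriptional repressor that also feeds into the circadian clock, stood at 69.6, 86.6 and 79.8 CPM in air and at 162, 154 and 133 CPM in nicotine (0.93 ± 0.15, edgeR adjusted p = 0.0501).

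Fam46a, which encodes a non-canonical poly(A) polymerase, stood at 92.3, 76.0 and 87.8 CPM in air and at 204, 320 and 156 CPM in nicotine (log2 fold change 1.41 ± 0.22, edgeR adjusted p = 0.0501). Ugdh makes UDP-glucuronate, a building block that hyaluronan synthases consume. It stood at 32.8, 40.5 and 33.9 CPM in air and at 61.0, 65.1 and 71.0 CPM in nicotine (0.88 ± 0.14, edgeR adjusted p = 0.0501). Fosl2, a subunit of the AP-1 transcription factor, stood at 141, 143 and 184 CPM in air and at 354, 394 and 350 CPM in nicotine (1.23 ± 0.21, edgeR adjusted p = 0.0767).

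The rest of the 12 higher genes of lowest p came from several roles. Arid5a encodes an RNA-binding protein that stabilises inflammatory transcripts (log2 fold change 1.13 ± 0.19), and Mrc1 the mannose receptor of tissue macrophages (1.14 ± 0.19). Sfrp4, a secreted Wnt antagonist, went from 77.1, 110 and 73.5 CPM to 206, 152 and 259 CPM (1.24 ± 0.22). Igfbp6, which binds insulin-like growth factor II, went from 59.0, 57.7 and 55.2 CPM to 122, 107 and 112 CPM (0.99 ± 0.18). Their edgeR adjusted p ran from 0.0711 for Arid5a to 0.121 for Igfbp6. The 12 genes were picked among those without overlap that averaged 5 CPM or more in the higher group. Their lack of overlap was thus set by the choice.

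On the lower side no gene passed edgeR's threshold, where 645 had an unadjusted p under 0.05, DESeq2 called 20 lower genes and limma voom 0. The 12 lower genes of lowest p, also picked among those without overlap, had edgeR adjusted p of 0.188 to 0.249. Slc8a3, a sodium-calcium exchanger that extrudes calcium, stood at 7.40, 14.6 and 10.8 CPM in air and at 5.12, 4.36 and 5.39 CPM in nicotine (log2 fold change -1.14 ± 0.26). Bves, a membrane protein of muscle that binds cyclic AMP, stood at 9.57, 15.6 and 12.9 CPM in air and at 5.61, 5.28 and 7.84 CPM in nicotine (-1.02 ± 0.23). In both genes air 8 was the air library closest to the nicotine group.

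Pomgnt1, an enzyme that extends the sugar chains of dystroglycan, stood at 62.6, 63.8 and 61.4 CPM in air and at 49.2, 44.3 and 42.1 CPM in nicotine, a small difference with little spread (log2 fold change -0.47 ± 0.11). Bcl9, a co-activator of beta-catenin, had a value of -0.61 ± 0.13, and Bmf, a pro-apoptotic member of the Bcl-2 family, one of -1.03 ± 0.25. Fam212b (-1.15 ± 0.26), Klhl38 (-0.92 ± 0.22), Sel1l3 (-0.95 ± 0.23) and Btbd6 (-0.60 ± 0.15) completed this group together with the zinc finger genes Zfp810 (-0.91 ± 0.19), Zfp386 (-0.68 ± 0.17) and Zfp41 (-1.19 ± 0.30). Zinc finger genes form a large family of similar sequences, and their counts are uncertain where reads could be shared.

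Among genes without overlap whose higher group averaged 5 CPM or more, the largest differences upward were not those of lowest p. Egr2, an immediate early zinc finger factor, stood at 2.96, 5.85 and 9.92 CPM in air and at 73.2, 55.1 and 16.9 CPM in nicotine (log2 fold change 2.95 ± 0.64, edgeR adjusted p = 0.238). Ccl2, the chemokine that attracts monocytes, stood at 1.39, 0.494 and 0.887 CPM in air and at 9.05, 4.19 and 7.68 CPM in nicotine (2.90 ± 0.63, edgeR adjusted p = 0.194). Hdc, which makes histamine, stood at 1.91, 1.07 and 2.500 CPM in air and at 12.98, 9.31 and 5.88 CPM in nicotine (2.35 ± 0.48, edgeR adjusted p = 0.188).

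Cyp2e1, a cytochrome P450 that oxidises small molecules such as ethanol, ranged from 39.7 to 55.0 CPM in air and stood at 434, 172 and 91.8 CPM in nicotine (log2 fold change 2.36 ± 0.82). Cish, a cytokine-induced inhibitor of STAT5 signalling, reached 11.3 and 14.1 CPM in nicotine 6 and 11. In nicotine 12 it stood at 2.29 CPM, just above the highest air value of 2.26 CPM (2.24 ± 0.77). The largest differences downward were smaller and came from scarce transcripts. They were Capn13 (-1.35 ± 0.50), Zfp273 (-1.31 ± 0.35), the kinase gene Pak6 (-1.25 ± 0.39), Zfp41, Zik1 (-1.17 ± 0.36) and Stc2 (-1.16 ± 0.52), a secreted glycoprotein gene.

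Each called gene was then set among the other genes of its pathway. For hyaluronan, 13 of 19 tested genes lay above 0 and 6 below, with a median log2 fold change of 0.23 (0.39 without air 10). At an unadjusted p under 0.05, 5 were higher and 2 lower, and 5 were higher and 2 lower without overlap. Once scaled, Hyal1 and Hapln1 were the lower ones without overlap. Hyal1 had 485, 651 and 638 raw counts in air and 379, 447 and 515 in nicotine. Hapln1 had 110, 159 and 159 in air and 75, 99 and 114 in nicotine. Has2, the synthase needed for heart development, went from 0.957, 0.659 and 0.0807 CPM to 3.84, 2.35 and 1.96 CPM (2.25 ± 0.68). Tnfaip6, a secreted protein that cross-links hyaluronan, went from 5.83, 5.93 and 3.31 CPM to 12.6, 13.5 and 10.5 CPM (1.28 ± 0.29). The receptor gene Lyve1, which is also in the macrophage list, went from 25.8, 23.9 and 28.2 CPM to 49.5, 39.8 and 53.8 CPM (0.88 ± 0.24).

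Has2, Tnfaip6 and Lyve1 did not overlap between groups, and with Ugdh and Has1 they are the 5 higher hyaluronan genes. Mesothelial cells, which line the body cavities and also make hyaluronan, are a possible other source of RNA on a dissected aorta. All 11 of 11 mesothelial markers lay above 0 with a median of 0.84, none was at 0 in all WT libraries, and their summed level was 17.2 to 27.9 CPM in air and 28.9 to 42.7 CPM in nicotine. Their part in the hyaluronan values was not tested.

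Of the EGF receptor ligands, receptors and regulators, 12 of 18 tested lay above 0 with a median of 0.27, and only Errfi1 passed the test. Adam17, the protease that sheds EGF receptor ligands, had a value of 0.33 ± 0.11, and the ligand genes Tgfa and Nrg1 had values of 0.64 ± 0.32 and 0.95 ± 0.52. Shc1, an adaptor below the receptor, had a value of -0.25 ± 0.12. Of the calcineurin subunits, regulators and NFAT factors, 7 of 15 lay above 0 with a median of -0.05, close to the median over all genes. Rcan2, a relative of Rcan1, had a lower value in nicotine (-0.51 ± 0.23), as did the calcineurin inhibitor Cabin1 (-0.42 ± 0.14), while the catalytic subunit Ppp3ca had a value of 0.24 ± 0.11.

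**Figure D3:**
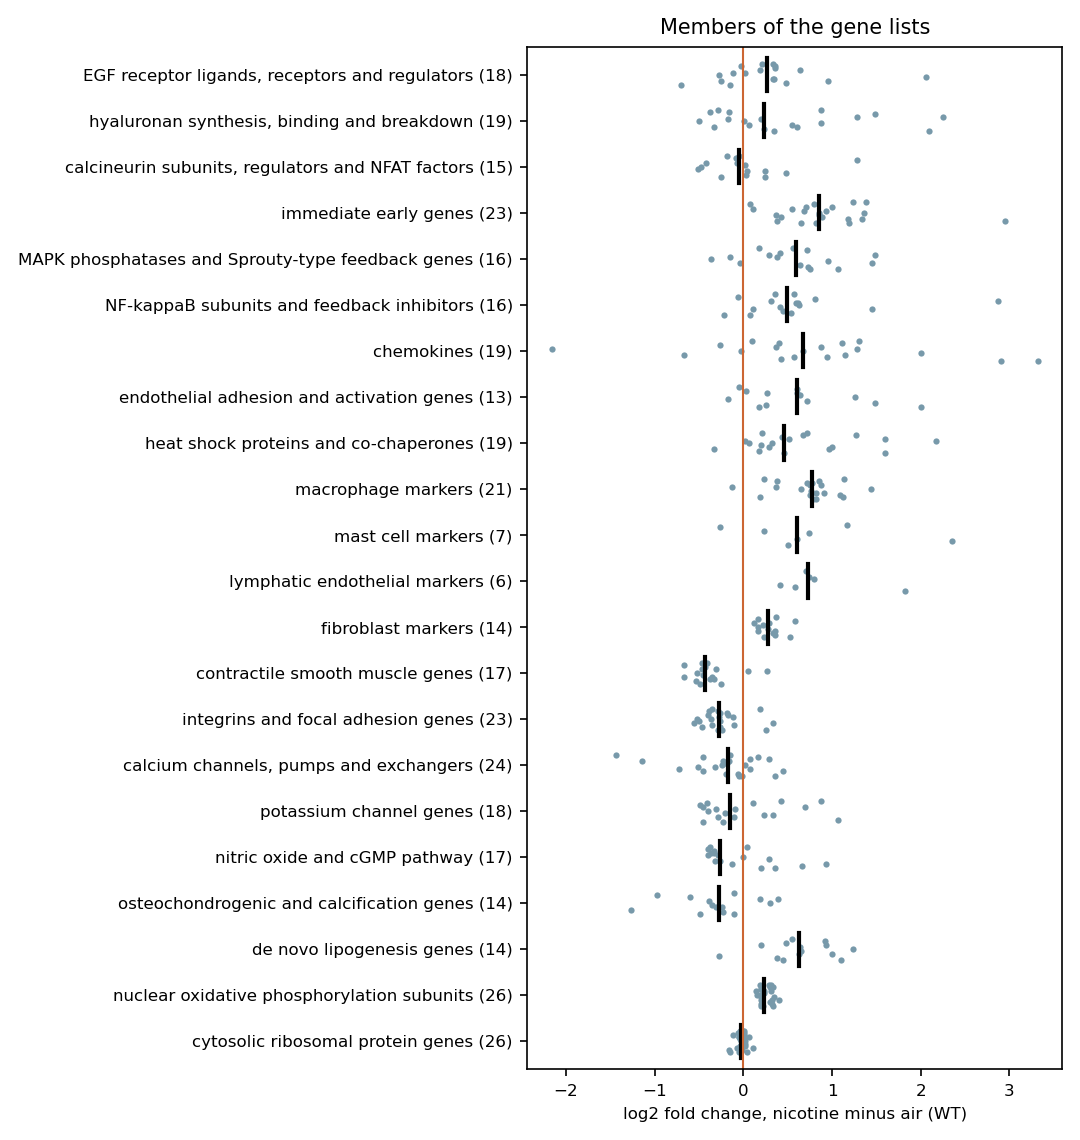
The log2 fold change of nicotine minus air in WT aorta (horizontal axis) for the tested members of 22 gene lists (number in brackets), each a point, with the list's median as a black bar and the median over all 14621 tested genes as an orange line. Immediate early genes, macrophage markers and chemokines have medians of 0.67 to 0.85, and contractile smooth muscle genes lie furthest to the left with a median of -0.43.

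Genes of the acute response to stimulation had higher values in nicotine as groups, with no member past the adjusted threshold. All 23 tested immediate early genes, transcription factors that cells switch on within minutes of a stimulus, lay above 0 with a median of 0.85, and 12 had an unadjusted p under 0.05. The median was 0.55 without air 8, 1.375 without air 10 and 1.34 with the adipocyte covariate. Klf4 stood at 75.0, 69.2 and 110 CPM in air and at 153, 160 and 145 CPM in nicotine (0.85 ± 0.17). Klf6 (0.38 ± 0.15) and Ier5 (0.55 ± 0.22) had smaller values.

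The classic members varied strongly between libraries of the same group. Fos, chosen after its values were seen, stood at 49.95, 83.5 and 411 CPM in air and at 490, 356 and 119 CPM in nicotine. Egr1, chosen likewise, stood at 145, 286 and 695 CPM in air and at 1102, 1251 and 534 CPM in nicotine. Air 10 lay above nicotine 12 for both genes, and for the mean log2 CPM of the whole list (6.74 in air 10 and 6.55 in nicotine 12). The groups thus overlapped for these genes, although 6 members of the list did not overlap. The labels give no time between the last exposure and dissection, and the part of handling in these values was not tested.

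Feedback genes limit such signals. Of the MAPK phosphatases and Sprouty-type inhibitors, 13 of 16 lay above 0 with a median of 0.60, and 6 had an unadjusted p under 0.05. Spry4, an inhibitor of growth factor signalling through Ras, stood at 23.8, 14.7 and 21.9 CPM in air and at 42.4, 43.1 and 40.6 CPM in nicotine (1.06 ± 0.20, edgeR adjusted p = 0.14). Its relative Spry2 went from 17.6, 18.5 and 29.8 CPM to 38.7, 43.1 and 45.3 CPM (0.95 ± 0.25).

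The Dusp genes encode phosphatases that switch off MAP kinases. Dusp16 had a value of 0.73 ± 0.17, Dusp8 one of 0.64 ± 0.20 and Dusp4 one of 1.45 ± 0.55. Dusp16 and Dusp8 did not overlap between groups, and Dusp4 did. Of NF-kappaB subunits and feedback inhibitors, 14 of 16 lay above 0 with a median of 0.49, and of 0.25 without nicotine 6. Tnip3, counted among the 14, had 2, 1 and 1 counts in WT air and 4, 11 and 16 in WT nicotine. It passed the count filter only through nicotine libraries, so its place above 0 was largely set by the filter. Bcl3, a nuclear cofactor of NF-kappaB, went from 5.57, 3.46 and 2.34 CPM to 11.02, 8.72 and 11.4 CPM (1.45 ± 0.38). The subunit gene Relb (0.57 ± 0.16) and the inhibitor gene Nfkbia (0.45 ± 0.14) also had higher values without overlap, while Tnip1, a gene for another inhibitor, had a lower value without overlap (-0.22 ± 0.12).

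Chemokines, which guide leukocytes into tissue, lay above 0 in 15 of 19 tested genes with a median of 0.67, and 8 did not overlap. Of the 4 below 0, the lowest, Cxcl13, had a value of -2.16 that was set by air 9. It had 12, 188 and 9 raw counts in air and 19, 19 and 5 in nicotine. Cxcl1, a neutrophil attractant, went from 0.957, 1.98 and 2.10 CPM to 9.15, 5.87 and 5.39 CPM (2.01 ± 0.42, edgeR adjusted p = 0.194). Ccl11, an eosinophil attractant, went from 15.5, 14.0 and 13.6 CPM to 25.6, 19.95 and 23.1 CPM (0.67 ± 0.17). Cxcl2 and Ccl7 had values of 3.32 ± 1.05 and 1.28 ± 0.53. Cxcl2 had 0, 2 and 4 counts in WT air and 6, 3 and 5 in KO air. It passed the count filter only through nicotine libraries. Its place among the 15 genes above 0 and the 8 without overlap was thus largely set by the filter.

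Adhesion and activation genes of the endothelium lay above 0 in 11 of 13 with a median of 0.60. Sele, the selectin that endothelium makes when activated, went from 0.783, 1.48 and 2.26 CPM to 4.82, 9.73 and 3.76 CPM (2.005 ± 0.47, edgeR adjusted p = 0.225). Vcam1, a docking site for leukocytes, went from 59.1, 67.0 and 73.8 CPM to 101, 125 and 84.0 CPM (0.63 ± 0.17), and Icam1 from 25.3, 37.5 and 40.4 CPM to 58.1, 47.5 and 64.8 CPM (0.72 ± 0.22).

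None of Sele, Vcam1 and Icam1 overlapped between groups. General endothelial markers lay above 0 in 12 of 15. Their median of 0.28 was 0.02 with the adipocyte covariate, 0.42 without air 8, 0.13 without air 9 and 0.12 without nicotine 6. None was at 0 in all WT libraries, and their summed level was 1523 to 1729 CPM in air and 1456 to 2109 CPM in nicotine. The groups overlapped for that sum, and the part of endothelial content in the adhesion values was not tested. Cldn5, the tight junction gene, had the largest value of the endothelial list (1.01 ± 0.30). Erg, 1 of the 3 members below 0, had the next lowest p and a value of -0.38 ± 0.20, with overlap.

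Cytokine genes and their signalling partners lay above 0 in 13 of 17, and their median of 0.22 was 0.36 without nicotine 11 and 0.37 with the adipocyte covariate. Il6ra, a subunit of the interleukin-6 receptor, had a value of 0.69 ± 0.23 without overlap. Il6 itself had 4, 2 and 0 counts in air and 42, 16 and 6 counts in nicotine. Il1b had a value of 2.36 ± 0.71, with nicotine 12 at 1.80 CPM just under air 9 at 1.81 CPM. These transcripts were too scarce for their order between libraries to be firm.

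Macrophage markers had the largest share of members without overlap among the 17 cell type lists. Of 21 tested, 20 lay above 0 with a median of 0.77, 12 had an unadjusted p under 0.05 and 14 did not overlap. Their summed level was 587 to 619 CPM in air and 825 to 1048 CPM in nicotine, and no marker was at 0 in all WT libraries. Mrc1 stood at 53.6, 39.6 and 41.9 CPM in air and at 117, 84.2 and 96.0 CPM in nicotine (edgeR adjusted p = 0.0767).

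Csf1r, the receptor on which macrophages depend for survival, went from 38.7, 46.7 and 40.4 CPM to 93.5, 77.1 and 65.0 CPM (0.90 ± 0.20, edgeR adjusted p = 0.194). Fcgr3, an antibody receptor, had a value of 1.12 ± 0.24 and F13a1, a coagulation factor gene of resident macrophages, one of 0.77 ± 0.15. Lyve1, Mrc1 and F13a1 mark the resident adventitial macrophages in particular. The median stayed between 0.62 and 0.87 when any single WT library was left out, and was 0.84 with the adipocyte covariate.

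Other immune lists were less even. Of the 10 tested neutrophil markers all lay above 0, with a median of 2.001 (1.075 without nicotine 6), but none was free of overlap. S100a9 stood at 1.74, 5.77 and 2.02 CPM in air and at 29.2, 4.11 and 12.0 CPM in nicotine, so that nicotine 6 set most of the difference and nicotine 11 lay below air 9. Their summed level was 12.8 to 38.6 CPM in air and 23.7 to 106 CPM in nicotine. Red cell markers, of which 7 of 7 tested lay above 0 with a median of 0.45, were also highest in nicotine 6 and were lowest in nicotine 12, and their median was -0.23 without nicotine 6, 0.85 without nicotine 12 and 0.25 without air 10. Their summed level was 7176 to 11121 CPM in air and 4421 to 19584 CPM in nicotine. The part of blood in the neutrophil values was not tested.

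T and NK cell markers lay above 0 in 6 of 9, and B and plasma cell markers in 5 of 9 with a median of 0.000746. Neither list had a member without overlap. Class II antigen presentation genes lay above 0 in 8 of 8 with a median of 0.78. H2-Aa went from 27.6, 30.9 and 27.0 CPM to 71.5, 53.3 and 34.9 CPM (0.90 ± 0.37), and H2-Ab1 had a value of 0.96 ± 0.42.

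Mast cell markers lay above 0 in 6 of 7 tested, with a median of 0.60. Their summed level was 40.7 to 61.2 CPM in air and 53.7 to 77.1 CPM in nicotine, and Ms4a2 had at most 3 counts in any WT library. Besides Hdc, the chymase gene Cma1 had a value of 1.17 ± 0.42 without overlap. Gata2, a transcription factor of mast and endothelial cells, went the other way (-0.26 ± 0.20). With the adipocyte covariate the median of the list was 0.000636, and without air 9 it was 0.27.

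Lymphatic endothelial markers lay above 0 in 6 of 6 tested with a median of 0.72 (0.46 without nicotine 6), while Ccl21a had no count in any WT library. Prox1, the factor that specifies lymphatic identity, went from 1.83, 2.14 and 1.61 CPM to 9.44, 8.13 and 2.37 CPM (1.83 ± 0.56). Flt4, the receptor of lymphatic growth factors, had a value of 0.74 ± 0.27. Nicotine 12 was the closest to air for both genes. The summed level was 58.0 to 71.6 CPM in air and 71.8 to 154 CPM in nicotine.

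Fibroblast markers differed little but in 1 direction, with 14 of 14 above 0, a median of 0.28 and 5 without overlap. The median was 0.46 with the adipocyte covariate. Clec3b went from 101, 127 and 110 CPM to 200, 159 and 128 CPM (0.53 ± 0.15), and Ly6a, a surface marker of adventitial progenitor cells, from 34.4, 29.7 and 25.7 CPM to 50.6, 36.7 and 47.5 CPM (0.59 ± 0.18). The summed fibroblast level was 6777 to 8449 CPM in air and 8364 to 10520 CPM in nicotine, with air 9 just above nicotine 12.

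**Figure D4:**
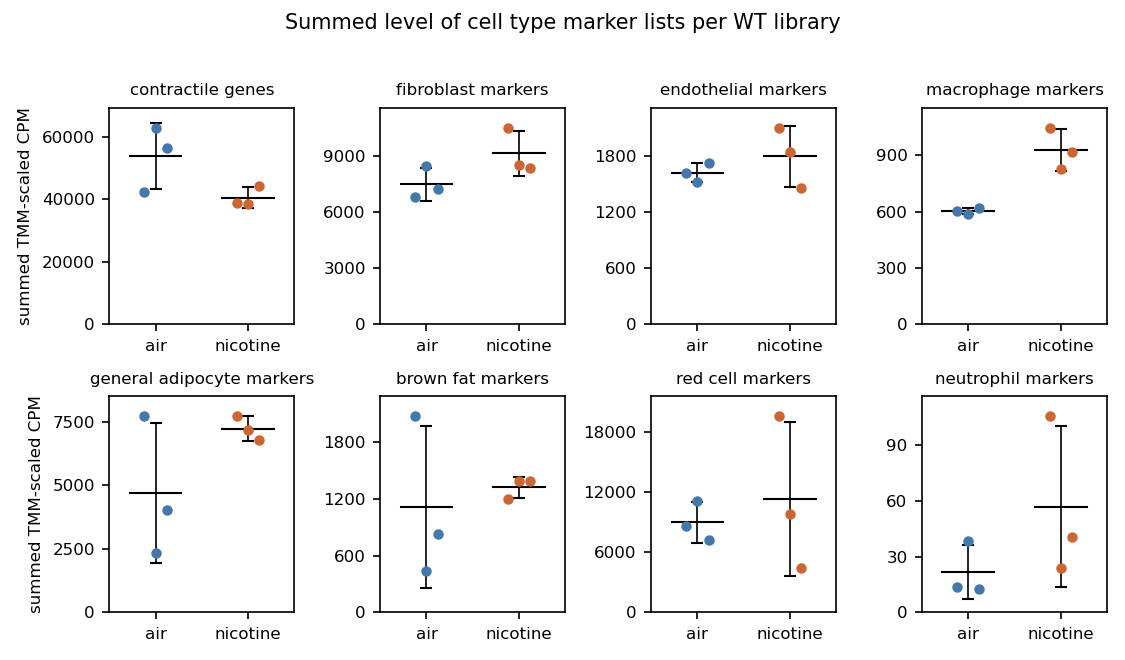
Summed TMM-scaled CPM (vertical axis, from 0) of 8 lists of cell type markers in each WT library, air in blue and nicotine in orange, with the group mean and SD. Macrophage markers separate the groups (587 to 619 CPM in air, 825 to 1048 CPM in nicotine), contractile genes overlap through air 8, and red cell markers are highest in nicotine 6.

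Smooth muscle genes were on the other side. Of 17 contractile genes, 15 lay below 0 with a median of -0.43, 7 had an unadjusted p under 0.05 and 4 did not overlap, but none passed the adjusted threshold. Acta2, smooth muscle actin, stood at 9842, 13533 and 13829 CPM in air and at 9556, 7630 and 9305 CPM in nicotine (-0.49 ± 0.24, edgeR adjusted p = 0.528). Myh11, smooth muscle myosin, stood at 14148, 21756 and 18294 CPM in air and at 12600, 14072 and 15867 CPM in nicotine (-0.35 ± 0.24).

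Lmod1, which nucleates actin filaments in smooth muscle, stood at 737, 1547 and 1101 CPM in air and at 650, 736 and 747 CPM in nicotine (-0.67 ± 0.22, edgeR adjusted p = 0.362). Actg2 (-0.67 ± 0.24) and Tpm2 (-0.54 ± 0.20) did not overlap, while Tpm1 (-0.52 ± 0.20) and Cnn1 (-0.47 ± 0.20) did. Air 8 was the lowest air library for each of these genes and lay near the nicotine group. Myocd, the master co-activator of the contractile genes, was 1 of the 2 members above 0 (0.27 on the log2 scale, and -0.0876 without nicotine 12). It was chosen after its value was seen.

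The contractile level moved with fat content. The summed level of 17 general adipocyte markers was 7718 CPM in air 8, 2345 in air 9 and 4014 in air 10, and 7735, 7195 and 6771 CPM in nicotine 6, 11 and 12. Air 8 was thus like the nicotine libraries in both its fat and its contractile level. The median of the contractile list was -0.43, and -0.12 with an adipocyte covariate. Its range when single libraries were left out was -0.56 to -0.30. No adipocyte marker was at 0 in all WT libraries, and beyond the covariate the part of fat in the contractile values was not tested.

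Integrin and focal adhesion genes, which tie the smooth muscle cell to its matrix, lay below 0 in 20 of 23 with a median of -0.28, which was 0.01 with the adipocyte covariate and -0.15 without air 9. Actn1 stood at 1925, 3313 and 3202 CPM in air and at 1878, 1763 and 2236 CPM in nicotine (-0.52 ± 0.22). Itga7, the laminin receptor of muscle, had a value of -0.55 ± 0.23 and Pdlim7 one of -0.50 ± 0.20. Pxn, which encodes the scaffold protein paxillin and was 1 of the 3 members above 0, had 62.6, 55.3 and 59.6 CPM in air and 75.8, 70.6 and 76.9 CPM in nicotine (0.33 ± 0.11).

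Calcium channels, pumps and exchangers lay below 0 in 17 of 24, and 5 had an unadjusted p under 0.05. Their median of -0.18 was -0.06 with the adipocyte covariate, -0.09 without air 9 and -0.08 without nicotine 11. Besides Slc8a3, the ryanodine receptor gene Ryr2 had 125, 202 and 203 CPM in air and 94.5, 89.4 and 137 CPM in nicotine (-0.72 ± 0.23). The auxiliary subunit genes Cacna2d1 (-0.45 ± 0.17) and Cacnb3 (-0.45 ± 0.18) overlapped at air 8. Ryr2 is also a cardiac gene and is itself in the cardiac list, so the cardiac values that follow include it. It stood at 203 CPM of a summed level of 237 CPM in air 10, and at 125 of 331 CPM in air 8. In nicotine 6 it stood at 94.5 of 117 CPM. Cardiac markers lay below 0 in 7 of 8, with a summed level of 237 to 331 CPM in air and of 117 to 264 CPM in nicotine, and their median of -0.58 turned to 0.10 without air 8 and was -0.21 without nicotine 6 and -0.98 without air 10. The part of cardiac muscle in the Ryr2 value was not tested.

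Potassium channel genes lay below 0 in 11 of 18 with a median of -0.15, which was 0.00142 with the adipocyte covariate, -0.06 without air 8, -0.09 without air 9 and -0.23 without air 10. Kcnj8, the pore of the vascular ATP-sensitive channel, stood at 46.8, 72.5 and 55.7 CPM in air and at 42.1, 44.8 and 38.0 CPM in nicotine (-0.49 ± 0.14, edgeR adjusted p = 0.290). Kcnma1, the large-conductance calcium-activated channel that opposes constriction, had a value of -0.45 ± 0.20 and its beta subunit Kcnmb1 one of -0.46 ± 0.21, both without overlap. Kcnj2, an inward rectifier, went the other way (1.07 ± 0.42).

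The nitric oxide and cyclic GMP pathway, through which endothelium relaxes smooth muscle, lay below 0 in 11 of 17 with a median of -0.27. It was -0.05 with the adipocyte covariate and between -0.16 and -0.14 when any single WT library was left out. The natriuretic peptide receptor genes Npr1 (-0.33 ± 0.15) and Npr2 (-0.32 ± 0.15) had the lowest p. Pde3a, a phosphodiesterase, went from 579, 762 and 753 CPM to 573, 540 and 546 CPM (-0.34 ± 0.18), with air 8 just above nicotine 6.

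Among vasoactive receptors and peptides there was no shared direction (12 of 23 above 0, median 0.05, and 0.22 with the adipocyte covariate), but single genes differed widely. Agtr1a, the main angiotensin II receptor, went from 0.957, 0.659 and 0.403 CPM to 3.64, 3.69 and 1.71 CPM (2.15 ± 0.56, edgeR adjusted p = 0.270), on 5 to 11 counts in air and 21 to 44 in nicotine. Ptgs2, the inducible cyclooxygenase, went from 18.6, 23.8 and 55.7 CPM to 90.6, 90.9 and 63.0 CPM (1.32 ± 0.38). Neither overlapped between groups. Adra1d, the alpha-1D adrenergic receptor of the aorta, had a lower value (-0.83 ± 0.29), and Ptgis, prostacyclin synthase, likewise (-0.59 ± 0.22), both with overlap.

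Nicotinic and muscarinic receptors were scarce. Of 24 cholinergic genes 10 were tested, 6 lay below 0, and none had an unadjusted p under 0.05. Chrna7 stood at 1.91, 2.88 and 2.98 CPM in air and at 0.885, 1.51 and 2.12 CPM in nicotine, with overlap (-0.77 ± 0.46, edgeR adjusted p = 0.608). The other tested nicotinic subunits were Chrnb1 (-0.36 ± 0.23), Chrnb2 (0.89 ± 0.46), Chrna1 (-0.22 ± 0.55, and 0.64 with the adipocyte covariate) and Chrna2 (-0.32 ± 0.81).

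The matrix of the wall differed gene by gene. Elastic fibre genes (8 of 18 above 0, median -0.05), fibrillar and associated collagens (9 of 15, median 0.04) and basement membrane genes (7 of 17, median -0.02) had medians near that of all genes. With the adipocyte covariate their medians were 0.26, 0.23 and 0.10, where that of all genes was 0.00163. Efemp1, a fibulin, went from 42.1, 37.6 and 39.1 CPM to 63.5, 60.9 and 53.5 CPM (0.58 ± 0.15). Col12a1, a collagen that decorates fibrils, went from 64.2, 55.8 and 61.1 CPM to 90.3, 79.0 and 83.4 CPM (0.48 ± 0.12), and Col14a1 had a similar value (0.51 ± 0.14).

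Efemp1, Col12a1 and Col14a1 did not overlap between groups, in contrast to the main collagens Col1a1 (0.37 ± 0.25) and Col3a1 (0.34 ± 0.23). Nid1, which links basement membrane layers, had a value of 0.53 ± 0.15. Adamts1, a protease that cuts large proteoglycans such as versican, went from 279, 396 and 505 CPM to 517, 706 and 823 CPM (0.79 ± 0.21), and Adamts15 had a lower value (-0.57 ± 0.21). Osteochondrogenic and calcification genes lay below 0 in 11 of 14. Their median of -0.28 was -0.08 with the adipocyte covariate, -0.47 without air 8, -0.18 without air 9 and -0.43 without nicotine 6. Tnfrsf11b, the decoy receptor osteoprotegerin, went from 24.7, 34.1 and 32.1 CPM to 21.7, 21.6 and 21.6 CPM (-0.49 ± 0.20).

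Heat shock proteins and co-chaperones lay above 0 in 18 of 19 with a median of 0.46. It was 0.73 without air 8, 0.29 without air 10, 0.76 without nicotine 6 and 0.16 without nicotine 12. Dnajb1, a co-chaperone of Hsp70, went from 49.6, 24.9 and 37.3 CPM to 109, 307 and 87.8 CPM (2.17 ± 0.48), and Bag3, another co-chaperone, from 210, 123 and 124 CPM to 219, 397 and 298 CPM (0.998 ± 0.25). Air 8 was the highest air library for both. Hmox1, the heme-degrading enzyme of oxidative stress, went from 10.5, 6.34 and 8.95 CPM to 15.1, 17.0 and 25.1 CPM (1.15 ± 0.35), and Nfe2l2, the factor that drives such genes, from 85.1, 99.5 and 113 CPM to 130, 156 and 122 CPM (0.46 ± 0.12).

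Of the genes named by lowest p in their lists, Myc, from the proliferation genes, went from 11.1, 5.27 and 8.63 CPM to 17.8, 19.5 and 15.4 CPM (1.07 ± 0.27). Bmp2, a secreted morphogen, went from 21.1, 15.7 and 14.3 CPM to 24.1, 36.4 and 50.1 CPM (1.12 ± 0.30), and Hes1, a Notch target, from 22.3, 21.7 and 19.4 CPM to 33.8, 31.4 and 43.4 CPM (0.78 ± 0.21). Nfil3, a clock output repressor, went from 24.4, 6.18 and 8.23 CPM to 45.8, 46.0 and 40.9 CPM (1.78 ± 0.44). In all 4 genes the groups did not overlap. In their lists, the named genes included, 13 of 17 proliferation genes, 12 of 21 Notch, TGF-beta and BMP targets and 9 of 19 clock genes lay above 0.

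Fat and metabolic genes were uneven among the air libraries. Adipocyte markers lay above 0 in 16 of 17, and their median of 0.69 was 1.42 without air 8 and 0.30 without air 9. It was -0.10 with the adipocyte covariate. That covariate is the score of these same markers, so a median near 0 was set in advance. Adipoq stood at 269, 55.6 and 114 CPM in air and at 344, 295 and 228 CPM in nicotine, and Ucp1, the uncoupling protein of brown fat, at 926, 153 and 405 CPM in air and at 423, 436 and 530 CPM in nicotine. Air 8 overlapped the nicotine group for both genes and was the highest library of all for Ucp1 (log2 fold change -0.10 ± 0.53, which turned to 0.76 without it).

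Oxidative phosphorylation subunits lay above 0 in 26 of 26, with a median of 0.23 that was -0.27 with the adipocyte covariate, 0.69 without air 8, 0.02 without air 9 and 0.13 without air 10, and no member at an unadjusted p under 0.05. De novo lipogenesis genes lay above 0 in 13 of 14, and their median of 0.63 was 0.07 with the covariate, 1.53 without air 8 and 0.33 without air 9. Of the WT air libraries, air 8 had the highest and air 9 the lowest score for both lists, as for the adipocyte markers. The shifts of both medians with the covariate are therefore no independent result. Me1, which supplies NADPH for fatty acid synthesis, went from 223, 101 and 98.7 CPM to 463, 272 and 259 CPM (1.23 ± 0.42), without overlap. Ribosomal protein genes showed almost no difference, with 10 of 26 above 0 and a median of -0.02.

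The KO libraries give the same comparison in mice labelled as lacking the alpha7 receptor, and share no library with the WT comparison. Chrna7 itself had 26, 18 and 28 raw counts in the KO air libraries 1, 2 and 7 and 25, 8 and 21 in the KO nicotine libraries 3, 4 and 5. In WT it had 22, 35 and 37 in air and 9, 18 and 26 in nicotine, so the genotypes overlapped. The labels do not say which part of the gene is deleted, and a count per gene therefore does not check the genotype. In KO the nicotine log2 fold change was 0.37 ± 0.25 for Errfi1, 0.51 ± 0.27 for Has1 and 0.12 ± 0.17 for Rcan1. The difference, KO minus WT, was -1.68 ± 0.36 for Errfi1 (edgeR adjusted p = 0.777), -1.59 ± 0.39 for Has1 (0.994) and -1.16 ± 0.24 for Rcan1 (0.777). Over all 14621 genes edgeR called 0 such differences, with 647 at an unadjusted p under 0.05. The lowest edgeR adjusted p was 0.230, for Bhlhe40 (-1.35 ± 0.21). DESeq2 called 8, all with a smaller value in KO, among them Errfi1, Rcan1, Apold1, Bhlhe40 and Sfrp4, and limma voom called 0.

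The genes named here were chosen for their WT values, so smaller KO values in them are a description only. KO medians are set beside WT medians for the lists in the same way. The macrophage list had a median of 0.77 in WT and 0.13 in KO, the immediate early list 0.85 and -0.03, and the class II list 0.78 and -0.78. The mean log2 CPM of the class II list was 4.64, 4.60 and 5.64 in KO air 1, 2 and 7. In KO nicotine 3, 4 and 5 it was 4.35, 4.81 and 3.85, so the KO groups overlapped and KO air 7 lay highest. Only WT libraries were left out in turn. The contractile list had -0.43 and -0.33, and the calcium list -0.18 and -0.21. Differences between genotypes were tested gene by gene only.

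**Figure D5:**
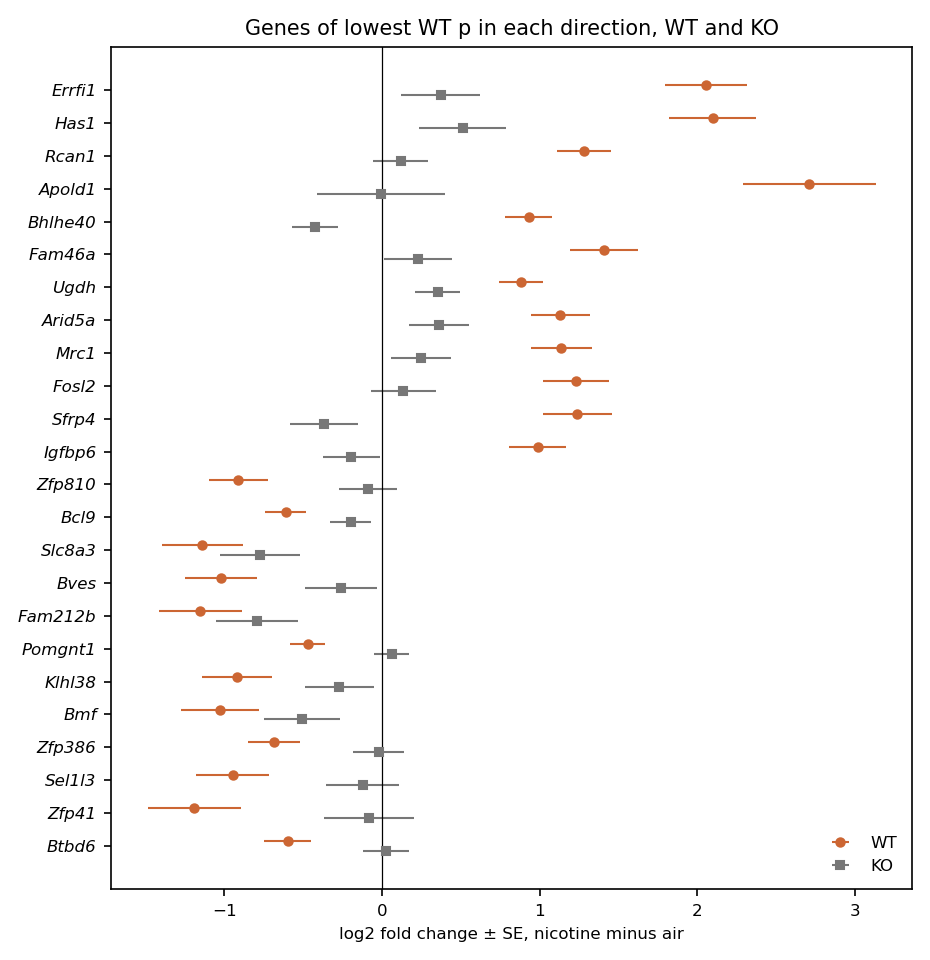
The nicotine minus air log2 fold change with its SE (horizontal axis) of the 12 higher and 12 lower genes of lowest p in WT, for WT libraries (orange circles) and KO libraries (grey squares). The genes were chosen by the WT value, and no difference between the genotypes passed edgeR's threshold, the lowest adjusted p being 0.230 for Bhlhe40.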

How the data were processed

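RNA of the thoracic aorta was isolated with the RNeasy Plus mini kit and made into libraries with the SMART-Seq v4 kit, which does not mark strand, so reads of overlapping genes cannot be told apart. Per the submitters' processing notes, the authors used HTSeq and the mouse build mm9, and the deposited values are raw counts per gene symbol. As to the aligner and annotation: not given in the sources used here. The authors' deposited table of nicotine against air in WT holds, per the file headers, a mean signal per gene, a log2 fold change with its standard error, a test score, and p-values before and after adjustment. Its 17223 genes are those with a total over 20 counts in the 12 libraries.

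Groups were taken from the labels, 4 of 3 libraries each. Libraries carry numbers that no groups share. Genes that passed edgeR's filterByExpr were fitted with edgeR 4.0.16 (TMM factors 0.962 to 1.05, robust quasi-likelihood fit of 4 group means on 12 libraries, 8 residual degrees of freedom, biological coefficient of variation 0.233). A gene was called at a Benjamini-Hochberg adjusted p under 0.05. The standard error (median 0.22) is the size of the log2 fold change divided by the root of F. CPM are TMM-scaled. Scores are mean log2 CPM with a prior count of 2. The fit was tested on simulated data.

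The genes and the 53 gene lists were chosen with earlier results of these data known, so lists are described by counts and medians and not tested. Named by rule were the called genes, the 12 higher and 12 lower genes of lowest p and the 6 higher and 6 lower of largest fold change among those without overlap and averaging 5 CPM or more in the higher group (predicted and unnamed genes skipped), up to 5 members of lowest p in each list and any that went against the rest, and Acta2, Myh11, Ucp1, Adipoq and the tested nicotinic subunits with Chrna7. Alternatives were DESeq2 1.42.0, limma 3.58.1 voom, a fit that was not robust, other filters and size factors, an adipocyte covariate, the WT libraries alone and leaving out each WT library. A gene that the rule names is not reported here. R 4.3.3, Python 3.11.15, pandas 2.3.3 and matplotlib 3.10.9 were used.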

Additional observations from a re-analysis of the deposited data

How the results depend on the processing

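edgeR called 3 genes in the WT comparison. The count was 7 with DESeq2-type size factors in edgeR, 21 without a filter on low counts, 102 with DESeq2 (82 higher, 20 lower), 116 with DESeq2 on the WT libraries alone (106 higher, 10 lower), 0 with the adipocyte covariate and 0 with edgeR on the WT libraries alone. Leaving out single libraries gave 0 to 34 calls, with 34 when WT air 8 was dropped, 14 for WT nicotine 12, 1 for WT nicotine 6 and 0 for WT air 9 or nicotine 11. Errfi1 and Rcan1 were called in 12 and Has1 in 11 of the 17 alternatives, and their log2 fold changes ranged from 1.84 to 2.26, 1.20 to 1.44 and 1.98 to 2.22. The interaction count of 0 became 8 with DESeq2 and 1 without a filter, and 0 to 1 when single libraries were left out (Zbtb16 without WT nicotine 12). Among named genes, Chrna1 (main -0.22) turned to 0.64 with the adipocyte covariate and Ucp1 (main -0.10) to 0.25 with limma voom. Leaving out single libraries gave -0.52 to 0.077 for Chrna1, -0.52 to 0.76 for Ucp1 and -0.0876 to 0.45 for Myocd. No paired analysis was possible because the groups share no library numbers. The cause of these shifts was not tested.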

Other observations

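Genes that glucocorticoids switch on lay above 0 in 15 of 16 tested, with a median log2 fold change of 0.47 in WT and 0.40 in KO. Tsc22d3, a steroid-induced leucine zipper protein, stood at 70.5, 62.4 and 78.6 CPM in air and at 106, 110 and 140 CPM in nicotine (0.75 ± 0.20), without overlap. It was also among the few named genes with a KO value as large (0.93 ± 0.20). Per1, a clock gene that steroids also induce, stood at 106, 143 and 197 CPM in air and at 227, 250 and 237 CPM in nicotine (0.68 ± 0.20). Unfolded protein and integrated stress response genes lay above 0 in 18 of 20 (median 0.18), and Sesn2, a sensor of amino acids that is induced by stress, went from 6.44, 4.45 and 7.42 CPM to 11.5, 19.7 and 8.33 CPM (1.11 ± 0.30).

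Xenobiotic metabolism genes lay above 0 in 17 of 21 (median 0.20), antioxidant enzymes and metallothioneins in 16 of 21 (0.17), and proliferation genes in 13 of 17 (0.29). Interferon-stimulated genes lay above 0 in 17 of 21 (0.36 in WT, -0.28 in KO) with none at an unadjusted p under 0.05. Matrix proteases and their inhibitors lay above 0 in 14 of 21 (0.12) and Notch, TGF-beta and BMP targets in 12 of 21 (0.18). Hypoxia-induced genes (10 of 16, median 0.04) and cholesterol genes (9 of 19, median -0.02) had medians that turned with the covariate or with single libraries. Without nicotine 6 the medians were 0.32 for the unfolded protein list, 0.03 for the antioxidant list, 0.18 for the interferon list, 0.07 for the protease list and 0.30 for the Notch, TGF-beta and BMP list. Without air 8 they were 0.29 for antioxidant, 0.47 for proliferation and 0.26 for protease genes. Protease genes had a median of 0.27 without air 9, proliferation genes one of 0.52 without nicotine 11, and interferon genes and Notch, TGF-beta and BMP targets 0.57 and 0.11 without nicotine 12. The adipocyte covariate took the xenobiotic median to 0.07 and the glucocorticoid median to 0.29. With it the protease median was 0.28 and the unfolded protein median 0.27. Fatty acid oxidation genes (14 of 16, median 0.36, -0.27 with the adipocyte covariate) and brown fat markers (8 of 11, median 0.48, -0.25 with it) turned in sign with it. Among the WT air libraries both scores, like the adipocyte score, were highest in air 8 and lowest in air 9. These turns are therefore no independent result.

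Markers of tissue outside the aorta were present at low and uneven levels. Skeletal muscle markers lay above 0 in 11 of 13, with Tnnc2 at 0 in every WT library. Their summed level was 20.9 to 38.2 CPM in air and 20.7 to 69.6 CPM in nicotine. Pvalb had 0, 0 and 0 counts in WT air and 1, 6 and 18 in WT nicotine, and Tnni2 had 1, 2 and 2 and then 9, 17 and 27. Both passed the count filter only through nicotine libraries, so their place among the 11 was largely set by the filter. Myh4, a fast muscle myosin, stood at 0.787, 16.01 and 22.05 CPM in nicotine and at 0.161 to 2.55 CPM in air. Hepatocyte markers had a summed level of 43.3 to 169 CPM in air and of 37.1 to 194 CPM in nicotine, and Schwann cell and nerve markers one of 86.8 to 96.0 CPM in air and of 84.1 to 91.7 CPM in nicotine, with Nefl at 0.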
